A study of Sus scrofa with 12 samples.

Results

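TFRC, FTH1, FTL and HBB carry iron into cells, store it there and carry oxygen in red cells, and their transcripts were followed in longissimus dorsi, a muscle along the spine, of Meishan pigs. Every probe set whose platform annotation names 1 of these genes alone was taken, which gave 5 of 23999 probe sets for these 4 genes. TFRC, FTH1 and HBB had 1 probe set each and FTL had 2, called here the first (higher mean over the 12 arrays) and the second, and all 5 passed the filter on low values, which kept 16166. A further 5 probe sets annotated both to FTH1 and to another gene were not assigned and are not analysed here. Muscle was sampled from fetuses at 65 days post coitus (65dpc) and from pigs at 3, 60 and 120 days after birth (3d, 60d and 120d), with 3 biological replicates and 3 arrays a stage, 12 in all. The pigs were Meishan under standard commercial feeding, no treatment was applied, and the fetuses of 1 sow counted as 1 individual. The labels used here do not say whether piglets were given iron.

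The transferrin receptor, encoded by TFRC, binds iron-loaded transferrin at the cell surface and brings it in by endocytosis. FTH1 and FTL encode the heavy and light chains of ferritin, the shell in which cells keep iron, and HBB encodes the beta chain of adult haemoglobin. When iron is scarce, iron regulatory proteins (encoded by ACO1 and IREB2) bind the TFRC and ferritin messenger RNAs, which stabilises TFRC transcripts and blocks the translation of ferritin, so ferritin protein can change with little change of its transcripts. Muscle is a large user of iron for myoglobin and the respiratory chain, and piglets are born with small iron stores.

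Array medians lay between 49.1 and 52.6 in intensity. The r between arrays of the same stage, over the 16166 probe sets kept by the filter, was 0.905 to 0.985. The fetal arrays stood apart from all arrays after birth on the first principal component (55% of the variance), and the lowest scores on the second were those of 65dpc replicate 2 (-21.5) and 60d replicate 1 (-36.8). Of 16 listed muscle fibre markers 12 were measured, and their summed intensity was between 40320 and 57990 at 65dpc and between 70540 and 80930 after birth. The ratio of the 3' to the 5' actin control probe set, a sign of RNA quality, averaged 2.45 ± 0.168 at 65dpc, 3.61 ± 1.06 at 3d, 5.10 ± 1.17 at 60d and 5.08 ± 0.895 at 120d (SD, n = 3 each). The same ratio for the ef1a control averaged 0.929 ± 0.0188 at 65dpc, 1 ± 0.0832 at 3d, 1.03 ± 0.0457 at 60d and 1.12 ± 0.0153 at 120d (SD, n = 3 each). Both ratios moved with stage, that of ef1a over a narrower range. Their part in the stage differences given here was not tested. In bulk muscle, fewer cells of a type and less RNA per cell cannot be told apart.

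TFRC was low in the fetus, high at 3d and low again at 60d and 120d. FTL on both probe sets, and HBB, were highest by mean at 65dpc and lower by mean at the 3 stages after birth. The first FTL probe set was called in no comparison. FTH1 had its highest arrays at 3d, and it passed the overall test but no single comparison. Changes are log2 differences of intensity plus 21, tested with limma and called at an adjusted p under 0.05. At the overall F test over the 4 stages 3 of the 5 probe sets were called, where 46.9% of all probe sets were. Shares of all probe sets are of the 16166 kept by the filter. At 3d against 65dpc 1 was called higher, where 20.3% of all probe sets were, and 2 were called lower, where 22.6% were. The arrays of the stages did not overlap for 4 of the 5, against 53% of all probe sets. At 60d against 3d 1 was called lower, where 0.742% of all were, and 2 did not overlap, where 20.4% did. At 120d against 60d none of the 5 was called by limma (adjusted p from 0.893 to 0.992) and none was free of overlap. In that comparison 0% of all probe sets were called, 1021 had an unadjusted p under 0.05, and 13.9% did not overlap. At 120d against 65dpc 2 were called lower, where 25% were, and 2 did not overlap, where 60.7% did. At 120d against 3d 1 was called lower, where 2.12% were, and 2 did not overlap, where 31.7% did.

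**Figure D1:**
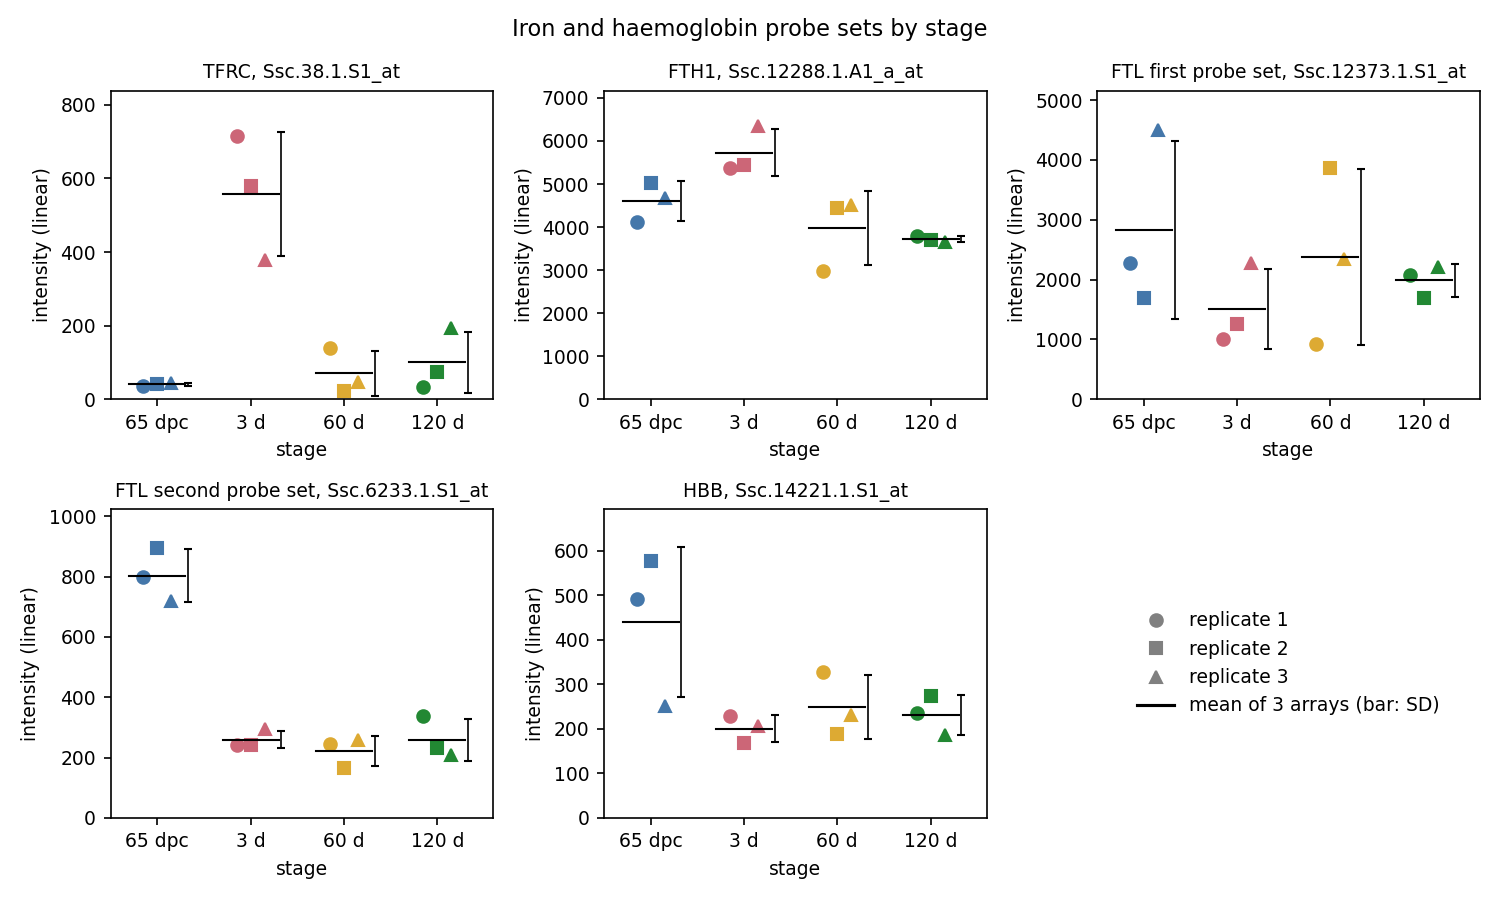
Intensity (linear axis, from 0) of the 5 probe sets on each of the 12 arrays by stage; symbols mark the replicate number, lines the mean and bars the SD of 3 arrays. The 3 TFRC arrays at 3d, between 378.9 and 715.1, lie above all others, and the 3 fetal arrays of the second FTL probe set, between 718.6 and 894.3, lie above every array after birth.

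TFRC had intensities of 36.9, 41.0 and 44.4 at 65dpc, 715.1, 578.1 and 378.9 at 3d, 140.4, 22.4 and 47.7 at 60d, and 34.1, 73.7 and 192.5 at 120d. Every array at 3d was above every other array, the fetal arrays lay close together, and the arrays at 60d and 120d overlapped each other and the fetal ones. Ordered by mean, 65dpc was lowest (40.8 ± 3.74), then 60d (70.2 ± 62.1), 120d (100.1 ± 82.5) and 3d (557.4 ± 169; SD, n = 3 each).

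TFRC rose at 3d by a log2 change of 3.18 ± 0.491 (SE) against 65dpc, with a limma adjusted p of 0.000399. The means stood in a ratio of 13.7, and the change after the shift of 21 was 9.09-fold. The fetal values lay below the array medians of 50.4 to 52.6 at that stage, so the added 21 lowers the log2 change, which ran from 2.69 to 3.70 over the other settings tried. At 60d against 3d TFRC fell by 2.84 ± 0.491 on the log2 scale (limma adjusted p = 0.0178). It was likewise lower at 120d than at 3d, by a log2 change of -2.44 ± 0.491 (limma adjusted p = 0.0177). Being called higher at 3d and then lower at 60d was shared by 32 of 5765 genes, taking 1 probe set a gene (0.555%).

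The arrays of the 3 low stages overlapped for TFRC. The log2 change at 120d against 60d was 0.40, with a 95% interval from -0.66 to 1.47 and a limma adjusted p of 0.9. Against 65dpc the 120d change was 0.75, with an interval from -0.32 to 1.82 and a limma adjusted p of 0.226, and it was 0.23 without 120d replicate 3 and 1.20 without 120d replicate 1. The highest array was 6.27 times the lowest at 60d and 5.65 times at 120d, against 1.89 times at 3d and 1.2 times at 65dpc.

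The rise of TFRC at 3d was called without each of the 12 arrays in turn, with log2 changes from 2.99 to 3.43. The fall at 60d was called in 10 of those 12 fits and lost its call without 3d replicate 1 (limma adjusted p = 0.0811) or 3d replicate 2 (limma adjusted p = 0.0642). It was also lost when only the 6 arrays of 3d and 60d were fitted (limma adjusted p = 0.0659). The lower level at 120d than at 3d was called in 8 of 12 such fits, and lost without 3d replicate 1, 3d replicate 2, 120d replicate 1 or 120d replicate 2, with adjusted p up to 0.0866.

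Markers of dividing cells, which also express TFRC, were read on the same arrays. Of 14 measured markers of dividing cells 2 were called higher and 8 lower at 3d against 65dpc. Of all 5765 genes 22.7% were called higher and 19.1% lower there. The median log2 change of the markers was -0.94, against 0.07 over all genes. Their summed intensity lay between 1144 and 1597 at 3d and between 2101 and 3542 at 65dpc. TOP2A, a topoisomerase of dividing cells, had a log2 change of -2.43 ± 0.442 (limma adjusted p = 0.00111). CCNA2, CCNB1, CCNB2, MCM3, RRM2 and TYMS, all among the 8, passed the filter on low values only with their fetal arrays, where they were high. CCNA2, for instance, read 42.2, 54.8 and 47.4 at 65dpc and at most 19.3 after birth. The count of 8 and the median thus lean on that filter. The part of dividing cells in the TFRC values was not tested.

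**Figure D2:**
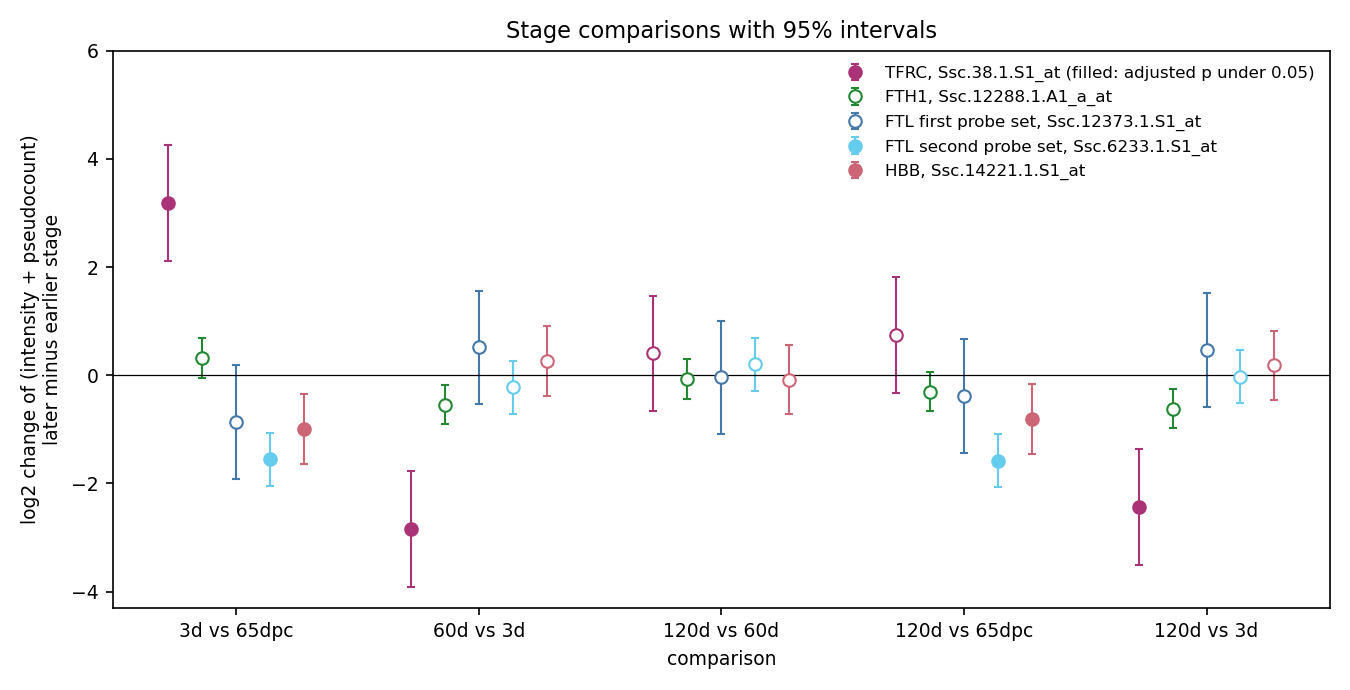
Log2 change of intensity plus 21, later minus earlier stage, for the 5 probe sets in 5 stage comparisons; bars are 95% intervals of the limma fit, and filled symbols have an adjusted p under 0.05. TFRC stands at 3.18 for 3d against 65dpc and at -2.84 for 60d against 3d, and no probe set is called for 120d against 60d.

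FTH1, the ferritin heavy chain, which holds the site that oxidises iron, had intensities of 4109, 5029 and 4670 at 65dpc, 5382, 5440 and 6351 at 3d, 2987, 4447 and 4513 at 60d, and 3800, 3705 and 3659 at 120d. The 3 arrays at 3d lay above all 9 others, and those at 120d differed from each other by 1.04-fold. By mean, 120d was lowest (3721 ± 72.1), then 60d (3982 ± 863), 65dpc (4602 ± 464) and 3d (5725 ± 544; SD, n = 3 each).

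FTH1 passed the overall F test (limma adjusted p = 0.0333). Its log2 change was 0.31 ± 0.169 at 3d against 65dpc (limma adjusted p = 0.152; 0.036 with arrays centred on the hybridization control probe sets), -0.54 ± 0.169 at 60d against 3d (limma adjusted p = 0.129) and -0.61 ± 0.169 at 120d against 3d (limma adjusted p = 0.0628). At 120d against 65dpc it was -0.30, with a 95% interval from -0.67 to 0.07. None of these passed the threshold. The 95% intervals, which are not adjusted for the number of probe sets, ran from -0.91 to -0.17 at 60d against 3d and from -0.98 to -0.25 at 120d against 3d. Without 60d replicate 1, the lowest array, the change at 60d against 3d was -0.35. The other 3 of these changes kept their size in that fit and passed the threshold (limma adjusted p = 0.037 at 3d against 65dpc, 0.0104 at 120d against 3d and 0.0401 at 120d against 65dpc).

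FTL, the ferritin light chain, which aids the forming of the iron core, was read by 2 probe sets that differed across stages. The first had intensities of 2281, 1685 and 4507 at 65dpc, 1001, 1254 and 2272 at 3d, 928.2, 3864 and 2339 at 60d, and 2075, 1685 and 2218 at 120d. All 4 stages overlapped, and the spread within a stage reached 4.16-fold at 60d. Its mean was lowest at 3d (1509 ± 673), then 120d (1992 ± 276), 60d (2377 ± 1468) and 65dpc (2824 ± 1487; SD, n = 3 each), and no neighbours in that order differed beyond their spread.

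The overall F test did not call the first FTL probe set (limma adjusted p = 0.479). At 3d against 65dpc its log2 change was -0.86 with a 95% interval from -1.91 to 0.19 (limma adjusted p = 0.171). Without 65dpc replicate 3, its highest array, that change was -0.46. The remaining changes lay between -0.38 and 0.51. Single arrays moved these too, and at 60d against 3d the change was 0.055 without 60d replicate 2 and 1.07 without 60d replicate 1. At 120d against 3d it was 0.23 without 3d replicate 1 and 0.81 without 3d replicate 3.

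The second FTL probe set had intensities of 797, 894.3 and 718.6 at 65dpc, 242.6, 242.1 and 292.9 at 3d, 243.4, 164.8 and 256.4 at 60d, and 338.3, 230.4 and 208.6 at 120d. The fetal arrays were all above the arrays after birth, which overlapped each other. Its log2 change at 3d against 65dpc was -1.56 ± 0.225 (limma adjusted p = 0.000271), and 187 of 5765 genes had a lower change.

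At 120d against 65dpc the same probe set had a log2 change of -1.58 ± 0.225 (limma adjusted p = 0.000168). Both calls were kept without each of the 12 arrays in turn. Between stages after birth its changes were -0.23 at 60d against 3d, 0.20 at 120d against 60d and -0.02 at 120d against 3d, with limma adjusted p from 0.677 to 0.978. Across the 12 arrays the 2 FTL probe sets correlated with Pearson's r of 0.23 and Spearman's rho of 0.17, and with r of -0.34 after the stage means were taken out. Stage is shared by these arrays, and the r is a description. The platform annotation names both as FTL and the files do not say which transcripts each reads.

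Macrophages, which hold much ferritin while recycling red cells, were followed through 14 measured markers of 19 listed. Their summed intensity was 1267, 1179 and 9834 at 65dpc, 1575, 1702 and 2423 at 3d, 1473, 2320 and 2643 at 60d, and 2321, 1384 and 3943 at 120d. The array with the highest sum, 65dpc replicate 3, also had the highest value of the first FTL probe set (4507), and within the fetal arrays it had the lowest of the second (718.6). Of the 14 markers 1 was called higher and 1 lower at 3d against 65dpc. Of all 5765 genes 22.7% were called higher and 19.1% lower in that comparison. CD163, the macrophage receptor for haemoglobin bound to haptoglobin, had a log2 change of 0.34 ± 0.728 there. The part of macrophages in the FTL values was not tested.

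**Figure D3:**
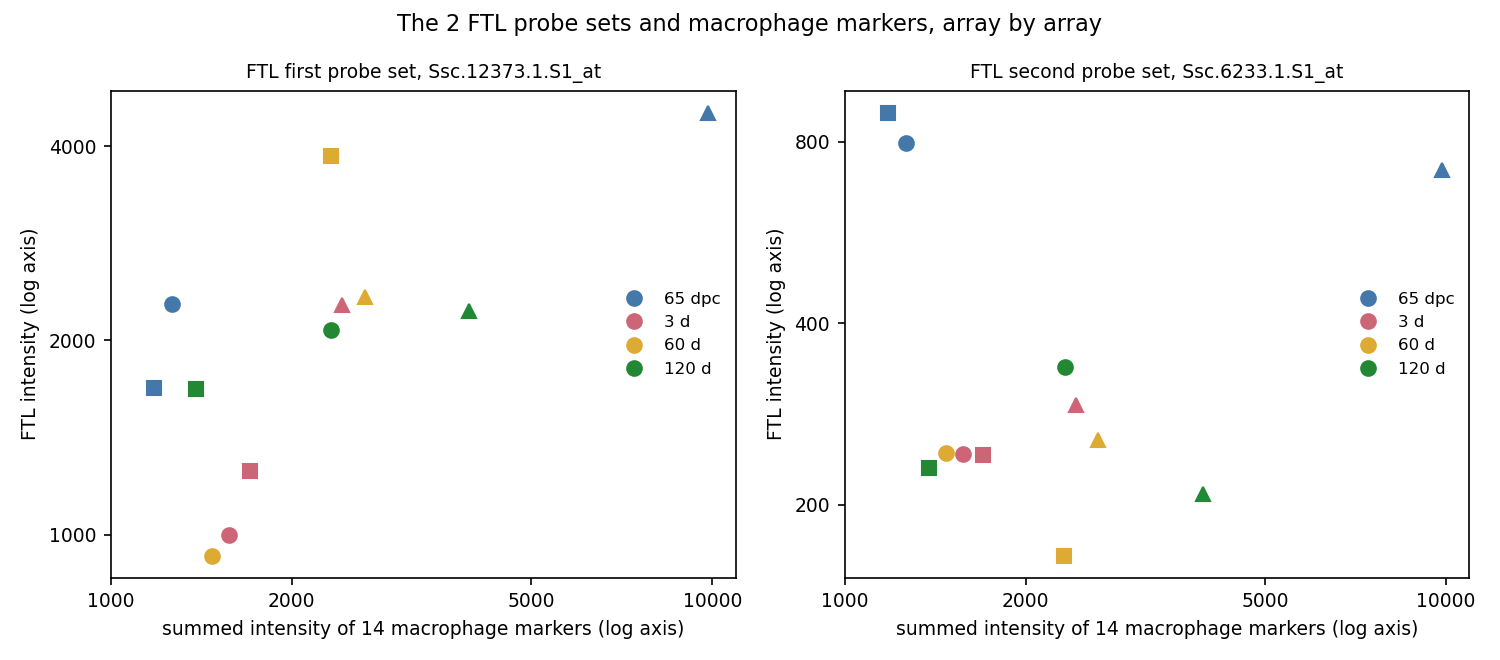
Intensity of each FTL probe set against the summed intensity of 14 macrophage markers on the 12 arrays (both axes log; circles, squares and triangles are replicates 1, 2 and 3, colours are stages). On the left the fetal array with a marker sum of 9834 has the highest FTL value, 4507; on the right the 3 fetal arrays lie above the rest whatever their marker sum.

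HBB had intensities of 491.1, 577.1 and 250.9 at 65dpc, 228.1, 167.2 and 205.3 at 3d, 327.4, 188.3 and 231 at 60d, and 235.7, 272.7 and 185.2 at 120d. The fetal arrays were above those at 3d, and 65dpc replicate 3 lay within the range of the arrays at 60d and 120d. The mean was 439.7 ± 169 at 65dpc, 200.2 ± 30.8 at 3d, 248.9 ± 71.3 at 60d and 231.2 ± 43.9 at 120d (SD, n = 3 each).

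At 3d against 65dpc HBB fell by 0.99 ± 0.295 on the log2 scale (limma adjusted p = 0.0176), and it was lower at 120d than at 65dpc by a log2 change of -0.81 ± 0.295 (limma adjusted p = 0.0387), although the arrays of 120d and 65dpc overlapped. The overall F test did not call it (limma adjusted p = 0.0551). After birth the changes were 0.26 at 60d against 3d, -0.08 at 120d against 60d and 0.18 at 120d against 3d, all with intervals across 0.

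The HBB calls were not kept in every fit that left 1 array out, and such fits also have less power. At 120d against 65dpc the change was -0.83 without 120d replicate 1, though the call was lost. The fall at 3d was called in 9 of 12 fits that each left 1 array out and was lost without 65dpc replicate 1 (limma adjusted p = 0.0597), 65dpc replicate 2 (limma adjusted p = 0.0744) or 3d replicate 2 (limma adjusted p = 0.0652). Without 65dpc replicate 2 and 60d replicate 1 together it was -0.76 (limma adjusted p = 0.0553). The call at 120d against 65dpc was kept in 8 of 12, with log2 changes from -1.15 to -0.58. It was lost without 65dpc replicate 1 or 2 and without 120d replicate 1 or 3 (limma adjusted p from 0.0767 to 0.148).

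Other erythroid genes did not follow HBB array by array. AHSP, which encodes the chaperone of free alpha globin, had intensities of 640.5, 43.2 and 313.9 at 65dpc, 35.2, 96.3 and 84.0 at 3d, 14.8, 24.6 and 19.0 at 60d, and 13.2, 17.0 and 26.4 at 120d. Among the fetal arrays replicate 2 was the highest for HBB and the lowest for AHSP, and it overlapped the 3d arrays for AHSP. The AHSP change was -1.45 ± 0.615 at 3d against 65dpc (limma adjusted p = 0.0742) and -2.62 ± 0.615 at 120d against 65dpc (limma adjusted p = 0.00421). The first of these was -0.73 without 65dpc replicate 1, and it was -2.41 and passed the threshold without 65dpc replicate 2 (limma adjusted p = 0.000442).

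ALAS2, the haem synthesis enzyme of red cell precursors, lay between 303.9 and 525.7 on all 12 arrays and had a log2 change of 0.13 at 3d against 65dpc (95% interval from -0.35 to 0.60). HBE1, an embryonic globin, did not pass the filter, with intensities between 15.2 and 29.7. Myoglobin and the alpha globins are not analysed here. HBM, another globin, had a log2 change of -0.39 (limma adjusted p = 0.374), and CYGB, cytoglobin, rose by 0.66 ± 0.127 (limma adjusted p = 0.00159) at 3d against 65dpc. The CYGB call was lost when arrays were centred on the hybridization control probe sets (limma adjusted p = 0.0548).

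Of 30 listed erythroid markers other than HBB 6 were on the array by symbol and 2, AHSP and ALAS2, passed the filter. The summed intensity of the 6 lay between 553.4 and 649.6 at 3d, 510.8 and 616.8 at 60d, and 496.1 and 620.4 at 120d, against 408.8 to 1197 at 65dpc. Its lowest fetal array, replicate 2, was the highest for HBB. How far blood or red cell precursors in the tissue set the HBB values was not tested.

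**Figure D4:**
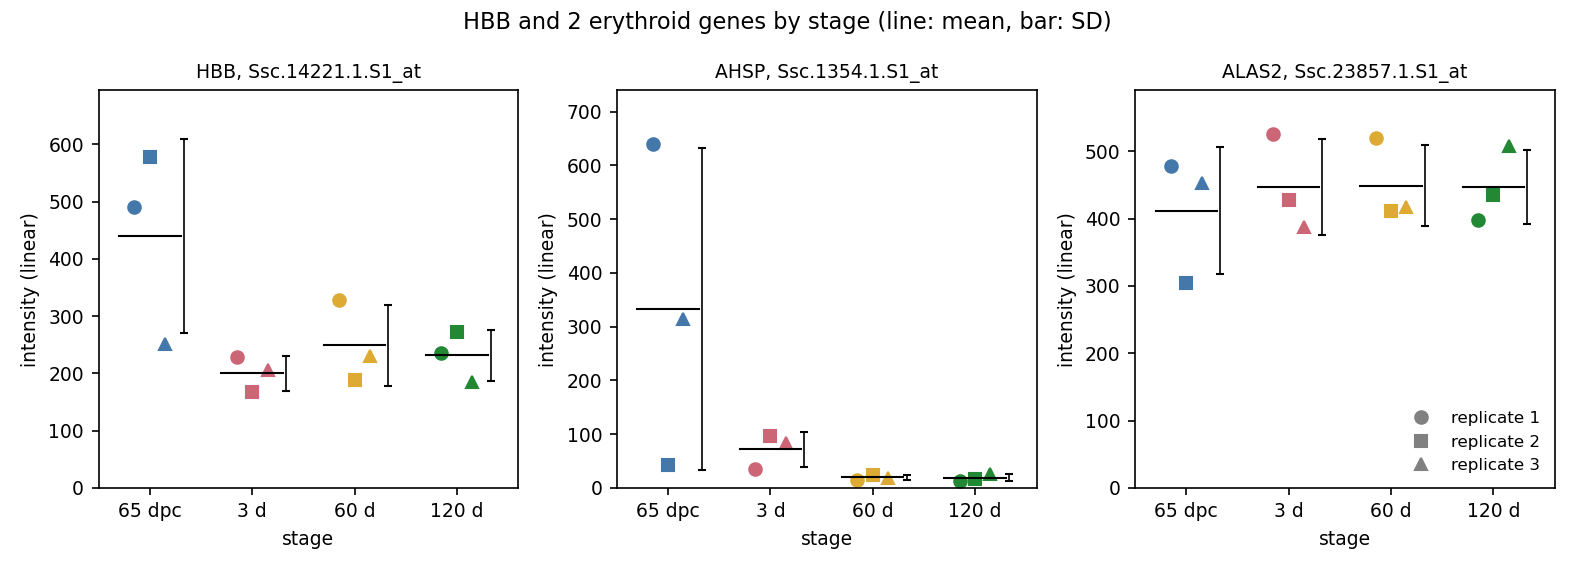
Intensity (linear axes, from 0) of HBB and of the erythroid genes AHSP and ALAS2 on the 12 arrays by stage; lines are means and bars SD of 3 arrays, and symbols mark the replicate number. Among the fetal arrays replicate 2 is highest for HBB (577.1) and lowest for AHSP (43.2), and ALAS2 stays between 303.9 and 525.7.

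Around TFRC, 11 of 29 listed genes of iron uptake, transport and export were measured. Of these, 4 were called higher and none lower at 3d against 65dpc, where 22.7% of 5765 genes were called higher and 19.1% lower. The list's median log2 change was 0.38, and 0.36 without TFRC, against 0.07 over all genes. SLC25A37, mitoferrin, which brings iron into mitochondria, rose by 1.15 ± 0.273 (limma adjusted p = 0.00558). On its second probe set its arrays at 3d read 81.2, 84.2 and 74.1, against 71.6, 30.9 and 44.9 at 65dpc.

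SLC39A14, a carrier of iron not bound to transferrin, rose by 0.38 ± 0.119 (limma adjusted p = 0.0227), and LTF, lactoferrin, by 0.38 ± 0.101 (limma adjusted p = 0.0106). Both of these were dim, with means of 62.2 and 41.0 at 3d, and both lost their call under the centring on the hybridization controls. SLC39A14 also lost it without 65dpc replicate 2, 3d replicate 1 or 3d replicate 3 (limma adjusted p up to 0.0904). Under that centring 2 of the 11 were called higher. LTF read 42.9, 43.4 and 36.9 at 3d and at most 35.2 on any other array. It thus passed the filter on low values only with its 3d arrays, and its call is not independent of that filter.

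TF, transferrin itself, was likewise dim in muscle (62.7 ± 11.2 at 3d and 59.6 ± 7.70 at 65dpc; SD, n = 3 each), and its log2 change was 0.05 with a 95% interval from -0.24 to 0.34. SLC11A2, the carrier that moves iron out of the endosome after TFRC has brought it in, had a log2 change of 0.01 at 3d against 65dpc (95% interval from -0.33 to 0.34). HP, haptoglobin, which binds free haemoglobin, had a log2 change of 2.01 ± 0.883 that did not pass (limma adjusted p = 0.0842). Its 3d arrays read 66.7, 44.2 and 1755, the last far above the others. At 60d against 3d and at 120d against 3d TFRC was the 1 gene of the 11 called, where 1.51% and 4.79% of genes were called.

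In the sensing list 8 of 16 genes were measured. NEO1, neogenin, a partner of haemojuvelin, fell by 1.29 ± 0.28 at 3d against 65dpc (limma adjusted p = 0.00334). HAMP, which encodes the hormone hepcidin and is a liver gene, was called higher by 0.37 ± 0.123 (limma adjusted p = 0.0295) at means of 57.5 at 3d and 40.1 at 65dpc, and lost its call in 4 of 12 fits that left 1 array out (65dpc replicates 1 and 2, 3d replicates 1 and 2). Under the centring on the hybridization controls its change was 0.090 (limma adjusted p = 0.635).

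Of the iron regulatory protein genes, IREB2 was not called at 3d against 65dpc, nor was ACO1 on its probe set with the highest mean. IREB2 had a log2 change of -0.27 ± 0.204 at 3d against 65dpc (limma adjusted p = 0.299) and of -0.72 ± 0.204 at 120d against 65dpc (limma adjusted p = 0.0119). ACO1 was read by 3 probe sets that disagreed. The one with the highest mean had a log2 change of -0.40 ± 0.214 at 3d against 65dpc (limma adjusted p = 0.147) and -0.96 ± 0.214 at 120d against 65dpc (limma adjusted p = 0.00307). The 2 others were called higher at 3d, by 0.70 and 0.48, and at 120d against 65dpc, by 0.51 and 0.86. NCOA4, the receptor that takes ferritin to lysosomes, had a log2 change of -0.30 ± 0.213 at 3d against 65dpc and 0.74 ± 0.213 at 60d against 3d (limma adjusted p = 0.109). With FTH1 and the first FTL probe set it made 3 measured genes of 4 listed for iron storage, and none of the 3 was called in any of the 5 comparisons.

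In haem synthesis 9 of 15 genes were measured. At 3d against 65dpc 1 was called higher, where 22.7% of all genes were, and none lower, where 19.1% were. It was ALAS1, the first and rate-limiting enzyme outside red cells. Its arrays read 999.6, 824.9 and 575.9 at 3d and 160.4, 206.7 and 217.7 at 65dpc, with no overlap. ALAS1 rose by 1.90 ± 0.233 (limma adjusted p = 9.36e-05), and its 2 other probe sets by 1.79 and 1.65. At 60d against 3d its log2 change was -0.86 ± 0.233 (limma adjusted p = 0.0956). A further ALAS1 probe set was called lower in that comparison (-0.89, limma adjusted p = 0.0328). As for TFRC, replicate 1 was the highest array at 3d and replicate 3 the lowest.

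In haem breakdown 4 of 8 genes were measured. HMOX1, haem oxygenase, had a log2 change of -0.81 ± 0.398 at 3d against 65dpc (limma adjusted p = 0.119). ABCG2, a carrier that exports haem and other substrates, fell by 1.38 ± 0.334 (limma adjusted p = 0.00606), while its second probe set had a log2 change of 0.25 (limma adjusted p = 0.114).

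The list for iron-sulphur cluster assembly, which holds mitochondrial and cytosolic genes, had 17 of 28 genes measured. Of them 7 were called higher and none lower at 3d against 65dpc, where 22.7% of 5765 genes were called higher and 19.1% lower. The cytosolic NUBP1, NUBP2, CIAPIN1, FAM96A, FAM96B and MMS19 were not among the 7. Nor were the mitochondrial ISCU, ISCA2, BOLA1 and GFER. The median log2 change of the 17 was 0.41, against 0.07 over all genes. BOLA3, which hands clusters to target proteins, rose by 2.16 ± 0.33 (limma adjusted p = 0.000377), NFS1, the sulphur donor, by 1.58 ± 0.182 (limma adjusted p = 6.45e-05) and HSPA9, the mitochondrial chaperone of the pathway, by 1.56 ± 0.202 (limma adjusted p = 0.000132). FDX1, ISCA1 and GLRX5 rose by 1.46, 1.42 and 1.21, and FDXR by 0.38.

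The calls of FDX1 and FDXR were lost under the centring on the hybridization controls, which left 5 of the 17, and without 65dpc replicate 2, which also ended the call of ISCA1 (limma adjusted p = 0.0547). FDX1 lost its call without 65dpc replicate 1 or 3d replicate 3 as well, and FDXR without 65dpc replicate 1, 3d replicate 1, 3d replicate 2 or 120d replicate 2. At 120d against 65dpc, where 24.2% of genes were called higher, 6 were called higher and none lower, but 3 higher and 2 lower under that centring. The cytosolic NUBP2 was 1 of the 6, and its call was lost in 12 of 25 alternatives. At 120d against 3d HSPA9 fell by 1.13 ± 0.202 (limma adjusted p = 0.00971). That last call was lost without 120d replicate 1 (limma adjusted p = 0.0619).

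All 10 measured genes of 20 listed mitochondrial proteins that carry iron-sulphur clusters or haem, or make haem a, were called higher at 3d against 65dpc, with a median log2 change of 1.70. Of all 5765 genes 22.7% were called higher in that comparison and 19.1% lower. The 10 were still called higher under the centring on the hybridization controls. NDUFS7, an iron-sulphur subunit of complex I, rose by 2.43 ± 0.308 (limma adjusted p = 0.000117) and CYCS, cytochrome c, by 1.82 ± 0.164 (limma adjusted p = 1.28e-05). SDHB, the iron-sulphur subunit of succinate dehydrogenase, rose by 1.80 ± 0.251 (limma adjusted p = 0.000221) on its probe set with the highest mean. A second SDHB probe set had a lower mean at 3d (249.3 ± 71) than at 65dpc (320.9 ± 177.8; SD, n = 3 each), with overlapping arrays. At 60d against 3d none of the 10 was called by limma and their median was -0.17, while TFRC had a log2 change of -2.84. At 120d against 65dpc all 10 were called higher, where 24.2% of all genes were, with a median of 1.42. Under the centring on the hybridization controls 7 of the 10 were called higher there. The muscle fibre markers moved with these genes at 3d against 65dpc, where 9 of 12 were called higher and none lower (median 0.66), and their part in it was not tested.

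**Figure D5:**
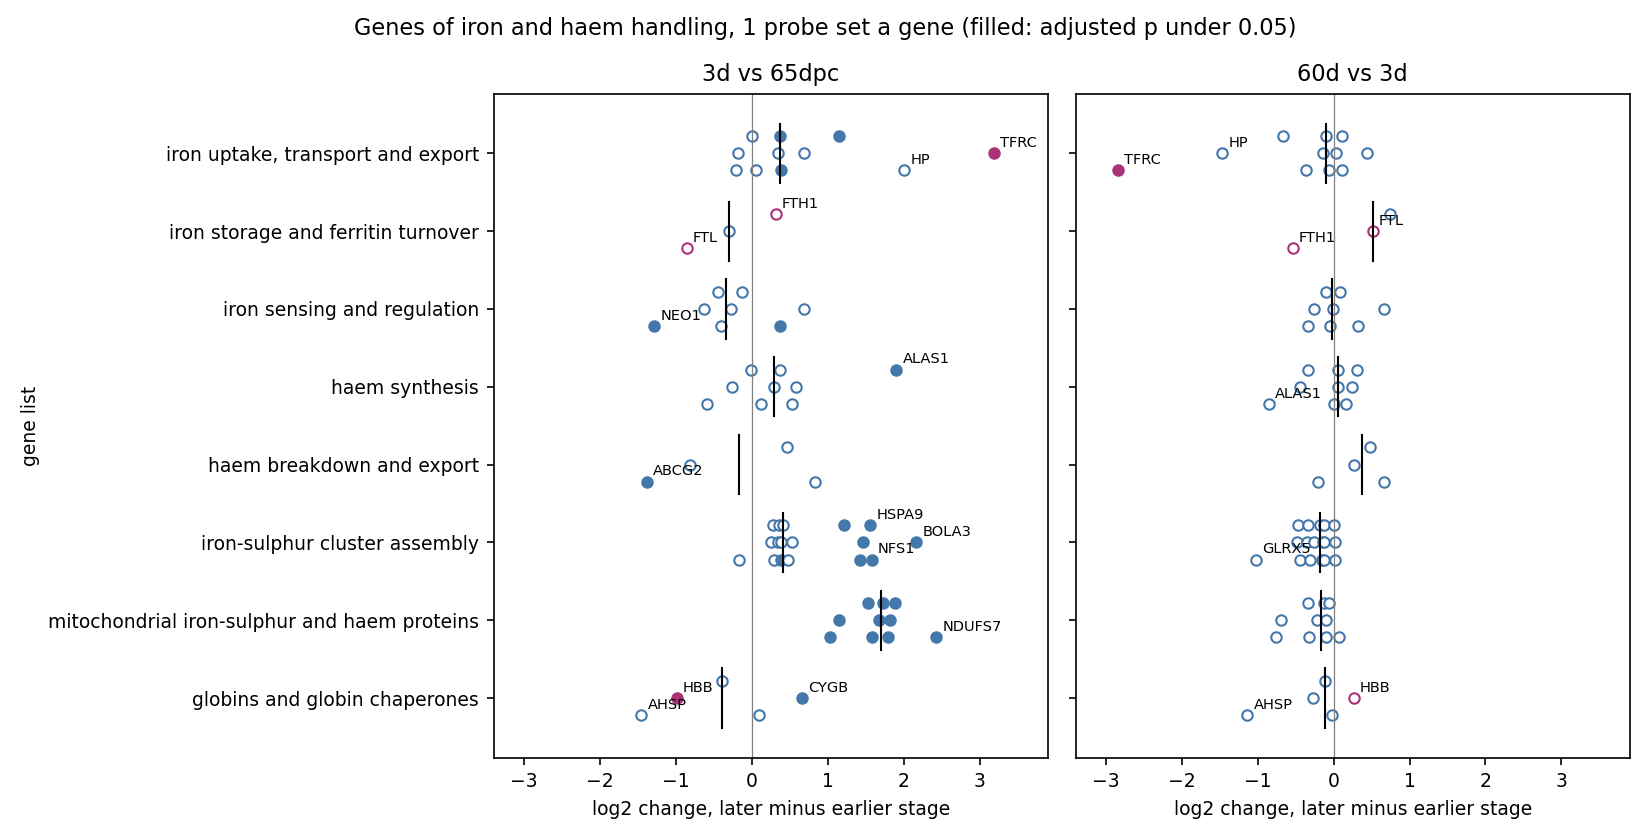
Log2 change of intensity plus 21, later minus earlier stage, of each measured gene (points, 1 probe set a gene) of 8 lists on iron and haem; filled points have a limma adjusted p under 0.05, vertical strokes are list medians, and TFRC, FTH1, FTL and HBB are in magenta. At 3d against 65dpc (left) TFRC stands at 3.18 and all 10 mitochondrial proteins are called higher; at 60d against 3d (right) TFRC, at -2.84, is the 1 filled point.

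The genes most like each of these were the 5 with the highest Pearson's r of log2 values over the 12 arrays among 5611 genes. For TFRC they were LTF (r = 0.975), SORD (0.915), PDSS1 (0.868), TAMM41 (0.868) and AIMP2 (0.866). LTF was dim and passed the filter only with its 3d arrays, with means of 26.8 at 65dpc, 41.0 at 3d, 27.4 at 60d and 29.9 at 120d. Its r with TFRC was 0.892 after stage means were taken out. That r was 0.821 for SORD, 0.429 for PDSS1, 0.0839 for TAMM41 and 0.287 for AIMP2. AIMP2 had means of 105.2, 499, 184.9 and 182.3 at 65dpc, 3d, 60d and 120d.

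For FTH1 the 5 were DLGAP4 (0.906), DKC1 (0.903), HYOU1 (0.897), RPS12 (0.879) and PPP2R1A (0.877). For the first FTL probe set they were WBP2 (0.954), ATG3 (0.952), RPL22L1 (0.917), ATP6V0E1 (0.911) and GABARAP (0.909), and these likenesses were 0.916 to 0.974 without stage means. The second FTL probe set was most like FAT1 (0.983), FYN (0.98), EGFL6 (0.979), VWA5A (0.974) and DPT (0.974), all of them highest in the fetus by mean. HBB was most like AKAP8 (0.933), GJA1 (0.921), ATL3 (0.919), SMAD4 (0.918) and ELOVL6 (0.91). These arrays share their stage, and no test was made of any r.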

How the data were processed

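Total RNA of the muscle was labelled and hybridised to Affymetrix porcine arrays, 1 array a sample, per the labels' protocols. The authors deposited linear intensities, and GCOS 1.4 is named for making them, per the submitters' processing notes. How probes were summarised, background corrected and scaled is not given in the sources used here. The medians of the arrays were close, so no further normalization was applied. The number of arrays limits the precision.

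Of 24123 probe sets, 124 controls were set aside. Values were taken as log2(intensity + 21), 21 being the 25th percentile of all values, and a probe set was kept where at least 3 arrays had it over their own 40th percentile. By the platform annotation 10069 probe sets had 1 symbol, 198 had several and 13732 had none. The probe set with the highest mean stood for a gene with several in lists and ranks, giving 5765 genes.

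All 12 arrays entered 1 limma fit with 1 mean a stage and a variance trend. Two-sided p-values were adjusted over 16166 probe sets by Benjamini-Hochberg, with a threshold of 0.05. Intervals are 95%. The fit was tested on simulated data.

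The genes and the 13 lists, 4 of them cell type markers, were chosen with earlier results of these data known, so no list is independent evidence. Lists are described by counts and medians, without a test of the list. Named besides the 4 genes are up to 6 called genes a list and comparison with the largest changes, genes of iron handling paired with them, and the 5 most alike; HP, CD163, HBM and TOP2A were named after their values were seen, as were second probe sets. Replicate numbers were not used as pairs, as the labels do not say what they mark. Deviations of arrays with the same number correlated with r from -0.424 to 0.297, above 0.1 in 8 of 18 pairs. For different numbers r ran from -0.408 to 0.646, above 0.1 in 11 of 36 pairs. The fit used limma 3.58.1 under R 4.3.3 with data.table version 1.17.8, and figures were drawn with matplotlib 3.10.9, pandas 2.3.3 and NumPy 2.4.6 under Python 3.11.15. The alternatives tried were other pseudocounts, filters, normalizations, variance models, array weights, fewer arrays and the replicate number as a block.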

Additional observations from a re-analysis of the deposited data

How the results depend on the processing

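The rise of TFRC at 3d against 65dpc, and the lower values of the second FTL probe set at 3d and at 120d against 65dpc, kept their direction and their call under every alternative run; the other calls of the 4 genes did not. The numbers called over all probe sets moved most after birth. At 60d against 3d 247 were called, but 926 with array weights, 39 with only the 6 arrays compared, 161 with the replicate number as a block and 111 without the 2 arrays that stood apart (65dpc replicate 2 and 60d replicate 1). At 120d against 3d 714 were called, but 4756 with array weights, 1525 with 6 arrays and 1147 without those 2 arrays. At 120d against 60d 1 was called without the filter. Leaving out 1 array at a time gave 75 to 297, 188 to 862 and 0 to 5 in these 3 comparisons. The replicate block changed no call of the 4 genes, and the arrays share only a number.

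FTH1 passed the threshold under quantile normalization (-0.43 at 120d against 65dpc, -0.58 at 120d against 3d), with centring on the hybridization controls (-0.73 and -0.77), with array weights (0.36 at 3d against 65dpc, -0.56 at 120d against 3d), with 6 arrays (-0.61 at 120d against 3d) and without the 2 arrays (0.38 and -0.61), while its change at 3d against 65dpc was 0.036 with that centring. The first FTL probe set passed at 3d against 65dpc with array weights (-0.94) and without the 2 arrays (-1.16). The second FTL probe set in its place gave -1.56 at 3d and -1.58 at 120d against 65dpc, and the opposite sign at 60d against 3d (-0.23), 120d against 60d (0.20) and 120d against 3d (-0.023). The HBB call at 120d against 65dpc was lost with quantile normalization (-0.70), 6 arrays (-0.81) and without the 2 arrays (-0.58), and that at 3d without the 2 arrays (-0.76). The TFRC fall at 60d was lost with 6 arrays (-2.84). Signs of uncalled changes turned for HBB at 120d against 60d (0.032 with array weights, 0.12 without the 2 arrays) and for the second FTL probe set at 120d against 3d (0.067 with array weights). Under the centring on the hybridization controls HAMP (-0.080) and NUBP2 (-0.043) turned at 120d against 65dpc. The cause was not tested.

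Without 1 array at a time TFRC ran from -3.36 to -2.41 at 60d against 3d, -2.96 to -1.98 at 120d against 3d, -0.12 to 0.92 at 120d against 60d and 0.23 to 1.20 at 120d against 65dpc. FTH1 ran from 0.24 to 0.38 at 3d against 65dpc, -0.27 to 0.030 at 120d against 60d, -0.38 to -0.23 at 120d against 65dpc and -0.66 to -0.54 at 120d against 3d. The first FTL probe set ran from -0.60 to 0.42 at 120d against 60d and -0.69 to 0.013 at 120d against 65dpc, 0.055 to 1.07 at 60d against 3d and 0.23 to 0.81 at 120d against 3d, and the second from -0.22 to 0.11 at 120d against 3d. HBB ran from -1.33 to -0.76 at 3d against 65dpc, -0.25 to 0.12 at 120d against 60d and -1.15 to -0.58 at 120d against 65dpc.

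Centring each array on its hybridization controls moved the median of all probe sets by -0.28 at 3d against 65dpc and -0.43 at 120d against 65dpc, and the share of calls that were higher was 19.3% against 47.3% as reported, and 14.4% against 48.3%. Changes are therefore relative to the array as a whole. Signal near background limits TFRC outside 3d, LTF, TF, HAMP and AHSP after birth.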

Other observations

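TFRC and FTH1 ran in opposite order on the arrays of some stages. At 3d replicate 1 had the highest TFRC (715.1) and the lowest FTH1 (5382), and replicate 3 the lowest TFRC (378.9) and the highest FTH1 (6351). At 120d replicate 1 had the lowest TFRC (34.1) and the highest FTH1 (3800), and replicate 3 the highest TFRC (192.5) and the lowest FTH1 (3659). At 60d replicate 1 had the highest TFRC (140.4) and the lowest FTH1 (2987), while the other two arrays did not keep the opposite order. At 65dpc replicate 1 had the lowest of both (36.9 and 4109). After stage means were taken out, r between them over the 12 arrays was -0.66, and over the arrays as they stand it was 0.43, with Spearman's rho of 0.34. The 60d arrays weigh most in the first r, as both genes spread widest there (6.27-fold for TFRC, 1.51-fold for FTH1). At 120d FTH1 spanned only 1.04-fold. This r was not computed without 60d replicate 1, an array that stood apart. Pigs of 1 stage differ in ways the labels do not give, and no test was made.

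Genes of oxygen sensing, which share the respiratory setting of iron use, were mixed. Of 10 measured genes of the hypoxia-inducible factor list 2 were called higher and 2 lower at 3d against 65dpc. Of all 5765 genes 22.7% were called higher and 19.1% lower there. HIF1A, the factor's first alpha chain, fell by 1.15 ± 0.294 (limma adjusted p = 0.00834), and its 3 other probe sets fell by 0.39 to 0.65 (limma adjusted p from 0.0408 to 0.0421). EPAS1, the second alpha chain, rose (95% interval of the log2 change from 0.38 to 1.63, limma adjusted p = 0.015), CA9, a carbonic anhydrase, rose by 1.32 ± 0.409 (limma adjusted p = 0.0214), and both lost their call under the centring on the hybridization controls. SLC2A1, a glucose carrier, fell by 1.01 ± 0.286 (limma adjusted p = 0.0138), with arrays of the stages overlapping. It passed the filter only with its fetal arrays, as after birth all arrays but 3d replicate 3 (86.6) read at most 29.1. Leaving out 1 array, which also lowers the power, ended some of these calls. EPAS1 lost its call without 65dpc replicate 1, CA9 without 65dpc replicate 2, and SLC2A1 without 65dpc replicate 3, 3d replicate 1 or 3d replicate 2. The 3d arrays of CA9 read 77.6, 50.5 and 279.9, and without 3d replicate 3 its change was 0.70 and still called. VEGFA, a growth factor of vessels, had a mean of 1204 at 60d and 658.3 at 3d, with a log2 change of 0.85 ± 0.16 (limma adjusted p = 0.0248) on its probe set with the highest mean; its 3 other probe sets were not called there, and the call was lost in 6 of 12 fits that left 1 array out.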
